A study of Mus musculus with 12 samples.

Results

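The region described here is the stretch of mouse chromosome 11 on the 5′ side of the α-globin domain. Its members are defined by position, as the DpnII fragments of chr11 (build mm9) whose midpoints run from 32000301 to 32104800.5. It holds 249 of the 120011 chr11 fragments that had a count for any viewpoint. The fragments are 19 to 2134 bp long, with a median of 280 bp, and together cover 104.892 kb less 382 bp that lie between listed fragments. The only viewpoint that lies wholly within it is the promoter of Il9r, and the stretch captured for Snrnp25 begins at its end nearest to the globin genes, both as inferred from the counts. Distances below, given in kb, are counted from that end, which is called the edge. NG Capture-C, a form of chromosome conformation capture in which oligonucleotides pull out the ligation partners of chosen restriction fragments, gave the number of interactions of each fragment with 7 viewpoints.

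The cells were CD71+ erythroid cells from day 7 embryoid bodies (EBs), made from E14TG2a.IV mouse embryonic stem cells (mESCs) of strain 129/Ola. WT cells were compared with D3839 cells, which lack in homozygosity the CTCF sites at HS-38 and HS-39.5 that form the 5′ boundary of the α-globin cluster. Each genotype had 3 libraries in a capture of the enhancers R1 and R2 and 3 in a capture of the promoters of Il9r, Snrnp25, Rhbdf1, Mpg and Nprl3. The replicates came from separate differentiations, and both captures of a replicate from the same one as far as its name tells. Cells of 2 clones made independently of each other were used, and which library came from which is not stated in the labels. The names of D3839 replicates 2 and 3 differ in a single digit, and whether they share a clone is not stated either. The interaction counts cannot check the edit, so the genotypes rest on the labels, and no expression values are used here that could check the cell type. Every library holds a single genotype, so a difference between library preparations cannot be told apart from genotype, and p-values measure only the spread between these libraries.

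In interphase chromosomes, a viewpoint meets nearby chromatin most often, and contacts fall with distance and across boundaries. CTCF bound in the appropriate orientation halts loop extrusion by cohesin and so insulates neighbouring domains from each other. In erythroid cells the α-globin enhancers R1 and R2, which lie in introns of Nprl3, contact the globin promoters inside such a domain. Mpg, Rhbdf1 and Snrnp25 lie between the removed boundary and the flank. Mpg encodes a DNA glycosylase of base excision repair, Rhbdf1 an inactive rhomboid protein that takes part in trafficking of a metalloprotease, and Snrnp25 a protein of the minor spliceosome. Nprl3 encodes a subunit of GATOR1, an inhibitor of mTORC1, and Il9r the ligand-binding chain of the interleukin-9 receptor.

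The edit and the viewpoint in the flank can be shown as sequence. The CTCF motifs at the sites that D3839 lacks are printed as the study's supplementary methods spell them, with the whole motif in capitals, because their loss is the edit that the genotypes are named for. By the same methods a restriction site took the place of each motif. Protospacer adjacent motifs were altered where needed so that the donor plasmid was not cut.
HS-38: TACCCTCTGGTGGC
HS-39.5: CTGGCCACTGGGGG
The Il9r promoter is shown because it marks the gene in the flank and the restriction site at which a viewpoint is cut. It is taken from RefSeq (build GRCm38.p6, chr11:32200230-32200529, minus strand, 250 bases before to 50 after the start of the gene), and these coordinates are not on the mm9 scale of the files. The capitals mark GATC, the DpnII site, a motif that reads the same on both strands.
Il9r promoter: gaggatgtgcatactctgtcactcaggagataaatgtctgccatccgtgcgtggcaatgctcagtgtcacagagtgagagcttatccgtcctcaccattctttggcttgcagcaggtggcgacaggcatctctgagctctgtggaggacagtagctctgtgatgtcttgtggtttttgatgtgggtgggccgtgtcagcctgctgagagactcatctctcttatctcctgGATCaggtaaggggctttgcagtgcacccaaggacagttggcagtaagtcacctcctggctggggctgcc
This promoter holds 1 such site, and 48.0% of the 32851 promoters of this length in the same table hold at least 1.

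Libraries differed in depth and quality beyond the flank. For promoter viewpoints the chr11 counts of a library ran from 4999 to 54370, and the least deep D3839 library of each of these viewpoints still exceeded the deepest WT library. For R1 and R2 they ran from 17406 to 69758 and overlapped between genotypes. The D3839 libraries also had more of all interactions on chr11 for each of the 7 viewpoints without overlap, for example 74.9% to 79.2% against 53.9% to 61.3% for Il9r. Promoter viewpoints also held more of their chr11 counts within 30 kb of their own stretch in D3839, for example 35.6% to 41.1% against 21.2% to 24.3% for Mpg. Values are therefore shares of the chr11 (cis) counts of a viewpoint and library, and the shares were also computed with all interactions as the total. In the promoter capture 11 of the 249 fragments had no count. Of these, 8 form the captured stretch of Il9r (chr11:32098986-32101248) and 2 the start of that of Snrnp25 (chr11:32104554-32106268). The limits of a captured stretch are inferred and not given by the labels. A stretch is a run of at least 3 fragments without counts in its own capture and with counts in the other. It was assigned to the viewpoint with the largest share of its counts next to the run. All 249 fragments had a count in the enhancer capture. The flank held 245 to 12986 counts per viewpoint and library. The thinnest case, Nprl3 in WT replicate 3, had a share of 2.52% with a Wilson 95% interval of 2.22% to 2.85%, and 3 counts in that library correspond to 0.0308%. Intervals cover counting error only.

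The first comparison asks how much of each viewpoint's contact with chr11 lay in the flank. Without the CTCF sites the flank took a larger share for Il9r and Snrnp25, the viewpoints within it or at its edge, and a smaller share for Rhbdf1, Mpg, Nprl3, R1 and R2. In WT the mean shares followed the order Il9r, Snrnp25, Rhbdf1, Mpg, R1, R2 and Nprl3. For Rhbdf1 and Mpg, and for R2 and Nprl3, the WT libraries overlapped, so these neighbours in the order did not differ beyond their spread.

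From Il9r, WT replicates 1 to 3 held 14.2%, 15.1% and 17.0% of chr11 counts in the flank, and D3839 replicates held 24.9%, 23.9% and 24.0%. The log2 ratio of D3839 over WT was 0.65 ± 0.08 (SE, n = 3 per genotype), and the libraries did not overlap. The size of this rise moved with the total and the limits, being 1.10 with all interactions as the total, 0.25 for interactions beyond 30 kb from the viewpoint and 0.24 without the nearest 15 kb, each time with separate libraries. A cap of 10 counts per fragment, which lowers the deeper D3839 libraries more by construction, turned the ratio to −0.56 with overlapping libraries. From Snrnp25, the shares were 10.1%, 10.0% and 10.4% in WT and 12.6%, 12.7% and 12.4% in D3839, a log2 ratio of 0.30 ± 0.02. Here too the libraries did not overlap, and the spread within WT was the smallest of all viewpoints, 0.193 percentage points (SD). The Snrnp25 rise lay in the part nearest to the edge, since without the nearest 15 kb the ratio was −0.01 with overlapping libraries, and without interactions under 30 kb from the viewpoint it was 0.07, again overlapping. With the cap of 10 counts it was −0.06, overlapping too.

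Among viewpoints between the flank and the removed boundary, Rhbdf1 gave 7.31%, 7.39% and 7.94% in WT and 5.94%, 6.02% and 5.98% in D3839. Mpg gave 7.60%, 7.35% and 7.01% in WT and 5.22%, 5.75% and 5.42% in D3839. Both pairs of genotypes were separate, with log2 ratios of −0.34 ± 0.04 for Rhbdf1 and −0.42 ± 0.05 for Mpg. These falls rested on the total, because with all interactions in place of chr11 counts the ratios became 0.03 for Rhbdf1 and −0.01 for Mpg with overlapping libraries.

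Viewpoints on the globin side of the boundary had the lowest shares and the deepest falls. Nprl3 gave 3.43%, 3.03% and 2.52% in WT and 1.66%, 1.73% and 1.68% in D3839, a log2 ratio of −0.82 ± 0.13. R1 gave 6.20%, 5.09% and 4.95% in WT and 3.28%, 3.21% and 3.02% in D3839, a log2 ratio of −0.77 ± 0.11. R2 gave 3.37%, 3.36% and 2.86% in WT and 2.21%, 2.29% and 2.14% in D3839, a log2 ratio of −0.53 ± 0.08. In each of the 3 viewpoints every D3839 library lay below every WT library. With all interactions as the total, the ratio of Nprl3 was −0.34 with overlapping libraries, and those of R1 and R2 were −0.57 and −0.34 with the libraries still separate. For all 7 viewpoints the exact two-sided permutation test of the shares gave p = 0.1 (n = 3 per genotype), the smallest value that 3 against 3 libraries allow, and the Benjamini-Hochberg value over 7 viewpoints was 0.1. For interactions beyond 30 kb from the viewpoint the ratio of Nprl3 was −0.36, that of Mpg −0.18 and that of Rhbdf1 −0.20, with separate libraries.

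**Figure D1:**
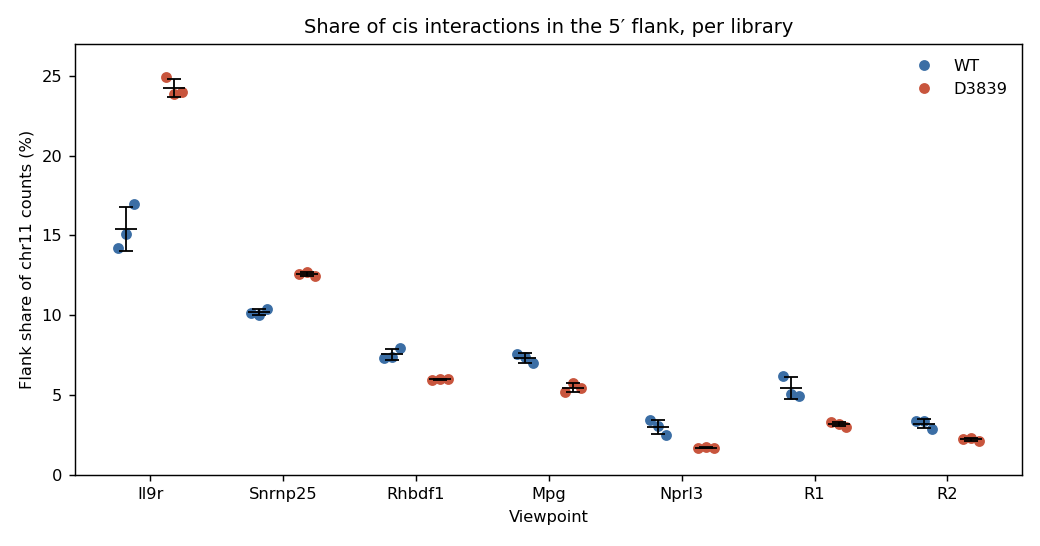
Share of chr11 counts that lay in the flank (y axis, %) for each viewpoint (x axis). Points are single libraries of WT (blue) and D3839 (red), and bars give the mean ± SD of 3 libraries. D3839 points lie above WT points for Il9r and Snrnp25 and below them for the other viewpoints.

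Since viewpoints of a capture are read from the same libraries, their changes were also compared within libraries. The log2 share for Il9r minus that for Rhbdf1 was higher in D3839 by 0.99 ± 0.05 (SE), and for Snrnp25 minus Rhbdf1 by 0.64 ± 0.02. For Snrnp25 minus Nprl3 the difference was 1.11 ± 0.14. Il9r and Snrnp25 differed from each other by 0.35 ± 0.07. Rhbdf1 and Mpg differed by 0.09 ± 0.08 with overlapping libraries, and R1 changed by −0.24 ± 0.09 relative to R2. In 10 of 11 pairs the libraries of the genotypes were separate. For those 10 the exact permutation p was 0.1 with a Benjamini-Hochberg value of 0.11, and for Rhbdf1 against Mpg the exact permutation p was 0.3 (n = 3 per genotype).

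Contacts fell off steeply along the flank for all viewpoints. The 35 kb nearest to the edge held 72.1% ± 2.9 (SD, n = 3) of the flank counts of Il9r in WT, 69.1% ± 1.8 of those of Snrnp25 and 56.3% ± 3.1 of those of Nprl3. In D3839 these shares were 81.7% ± 0.4, 76.8% ± 0.6 and 62.7% ± 2.5, and for the 3 viewpoints all D3839 libraries were above all WT libraries (exact permutation p = 0.1, Benjamini-Hochberg value 0.175). R1 rose from 68.7% ± 1.3 to 72.2% ± 1.9, also without overlap, but its libraries overlapped when the nearest 25 or 50 kb were taken instead. Rhbdf1, Mpg and R2 had overlapping libraries, with D3839 means of 67.5% ± 3.2, 65.5% ± 4.6 and 68.2% ± 3.0 against WT means of 62.9% ± 3.3, 61.5% ± 2.5 and 68.9% ± 6.0. The distance within which 50% of the flank counts lay was also shorter for Il9r in D3839, as it was 16.2 to 19.6 kb in the WT libraries and 10.6 kb in each D3839 library. For Snrnp25 it was 19.6 to 20.7 kb in WT and 12.6 to 15.4 kb in D3839, and for Nprl3 it was 28.1 to 29.3 kb in WT and 21.1 to 22.5 kb in D3839. For R2 it was 16.2 to 21.5 kb in WT and 18.9 to 20.2 kb in D3839, which overlap, as did the values of R1 and Mpg. For Rhbdf1 it was 22.1 to 23.1 kb in WT and 20.1 to 21.1 kb in D3839, without overlap.

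The flank was also split into a near part (up to 35 kb), a middle part (35 to 70 kb) and a far part. From Il9r, the near part rose by 0.83 ± 0.11 on the log2 scale, from 11.1% to 19.8% of chr11 counts, while the middle part was 3.12% to 3.17% in WT and 3.24% to 3.50% in D3839. From Snrnp25 the near part rose by 0.45 ± 0.03 and the middle part fell by 0.19 on the log2 scale, both without overlap. For Rhbdf1 and Mpg the middle part fell by 0.59 and 0.65 on the log2 scale and the near part by 0.24 and 0.33, and the far part overlapped between genotypes. For Nprl3 the near, middle and far parts fell by 0.66, 1.09 and 0.96. R1 fell by 0.70 in the near part, by 1.05 in the middle part and by 0.57 in the far part, and all 3 parts were separate between genotypes. R2 fell by 0.55 in the near part, by 0.55 in the middle part and by 0.32 in the far part, also separate. Several of these falls depended on the chr11 total. With all interactions as the total, a setting chosen for these parts after seeing the data, the near part had log2 ratios of 0.13 for Rhbdf1 and 0.08 for Mpg, and the middle part of Snrnp25 one of 0.04, all with overlapping libraries. The middle part then was at −0.23 for Rhbdf1, still separate, and at −0.24 for Mpg, overlapping. For Nprl3 the near and middle parts were at −0.18 and −0.61 and overlapped, and the far part was at −0.47 and separate. The near and middle parts of R1 stayed separate at −0.50 and −0.84, and its far part overlapped at −0.37. For R2 the near part was at −0.36 and separate, and the middle and far parts overlapped at −0.35 and −0.13. The near part of Il9r rose by 1.28 and its middle part by 0.53.

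In 21 bins of 5 kb, the steepest fall in density per kb between neighbours was at the same place for all 7 viewpoints and in both genotypes. It lay between the bin at 20 to 25 kb and the bin at 25 to 30 kb. Mean density per kb dropped there by 4.01-fold for Il9r in WT, by 8.29-fold for Snrnp25 and by 7.83-fold for R1, and by 3.93-fold to 4.92-fold for the 7 viewpoints in D3839. The nearer bin was denser in 42 of 42 profiles of a viewpoint and library. The bin at 20 to 25 kb, just before the step, had the highest mean WT share of chr11 counts for Mpg (1.04%), Rhbdf1 (0.972%) and Nprl3 (0.378%) and the second highest for Snrnp25 (1.38%) and R1 (0.736%). The bin at 0 to 5 kb led for Snrnp25 (1.86%), R1 (1.17%) and R2 (0.570%), and came second for Mpg (0.814%) and Nprl3 (0.311%). Rhbdf1 had its second highest share at 15 to 20 kb (0.896%), and R2 at 5 to 10 kb (0.524%). For promoter viewpoints 6 of the 14 fragments at 0 to 5 kb carry no counts, so that less of its length can be counted. Per countable kb it was above the bin at 20 to 25 kb for Rhbdf1 (0.270% against 0.212%), Mpg (0.246% against 0.227%) and Nprl3 (0.0942% against 0.0824%). The number of fragments moves with the steepest step, as the bin at 20 to 25 kb holds 18 DpnII fragments with a median length of 197 bp and the next bin holds 6 with a median of 685 bp. Over all 21 bins the rank correlation of countable fragments with WT density per kb was 0.04 to 0.16 for promoter viewpoints. It was 0.33 for R1 and 0.42 for R2. Counted per fragment instead of per kb, the step was 1.54-fold for Il9r, 3.18-fold for Snrnp25 and 2.93-fold for R1 in WT, and 1.49-fold to 1.84-fold in D3839. Per fragment it was not the steepest fall for every viewpoint. For Il9r in WT the steepest was from 10 to 15 kb (0.199%) to 15 to 20 kb (0.118%). For R2 in WT it was from 60 to 65 kb (0.00858%) to 65 to 70 kb (0.00368%). A lesser dip at 80 to 85 kb falls on the bin with the fewest fragments, 4, and was below its inner neighbour in 40 of 42 profiles. Across the 21 bins the rank correlation of distance with WT density was −0.82 to −0.94 per kb and −0.88 to −0.98 per fragment, a description over bins that share libraries.

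**Figure D2:**
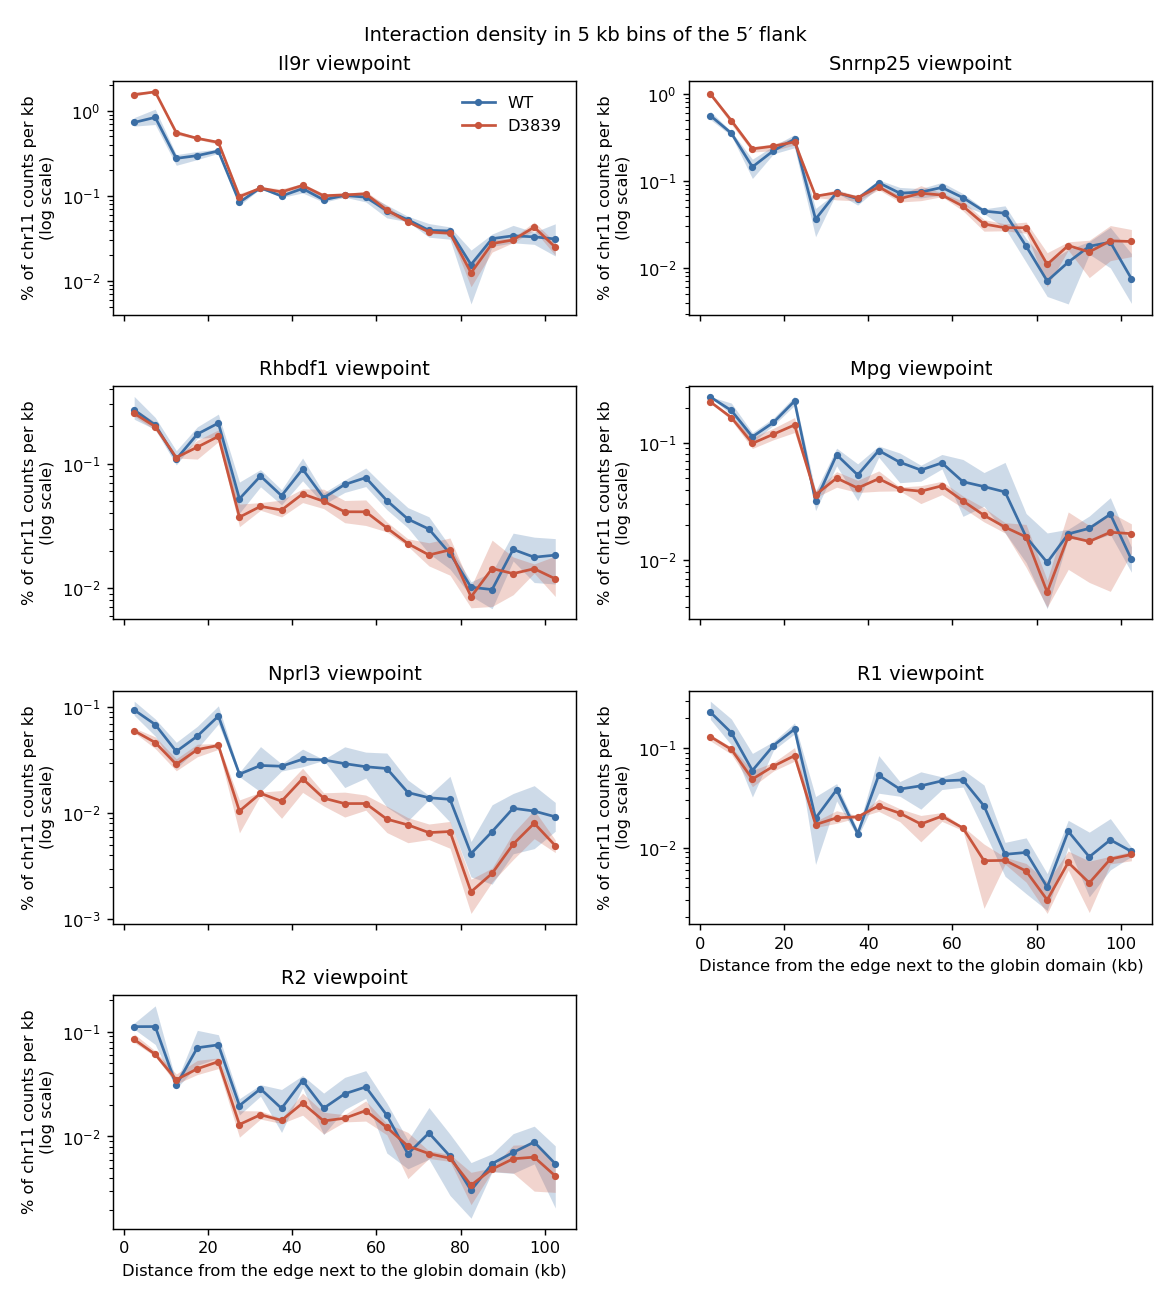
Interaction density (y axis, % of chr11 counts per kb, log scale) in 5 kb bins against distance from the edge (x axis, kb), a panel per viewpoint. Lines join means of 3 libraries, and bands run from the lowest to the highest library of WT (blue) and D3839 (red). D3839 lies above WT in the first bins for Il9r and Snrnp25 and below it over most of the flank for Nprl3 and R1.

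**Figure D3:**
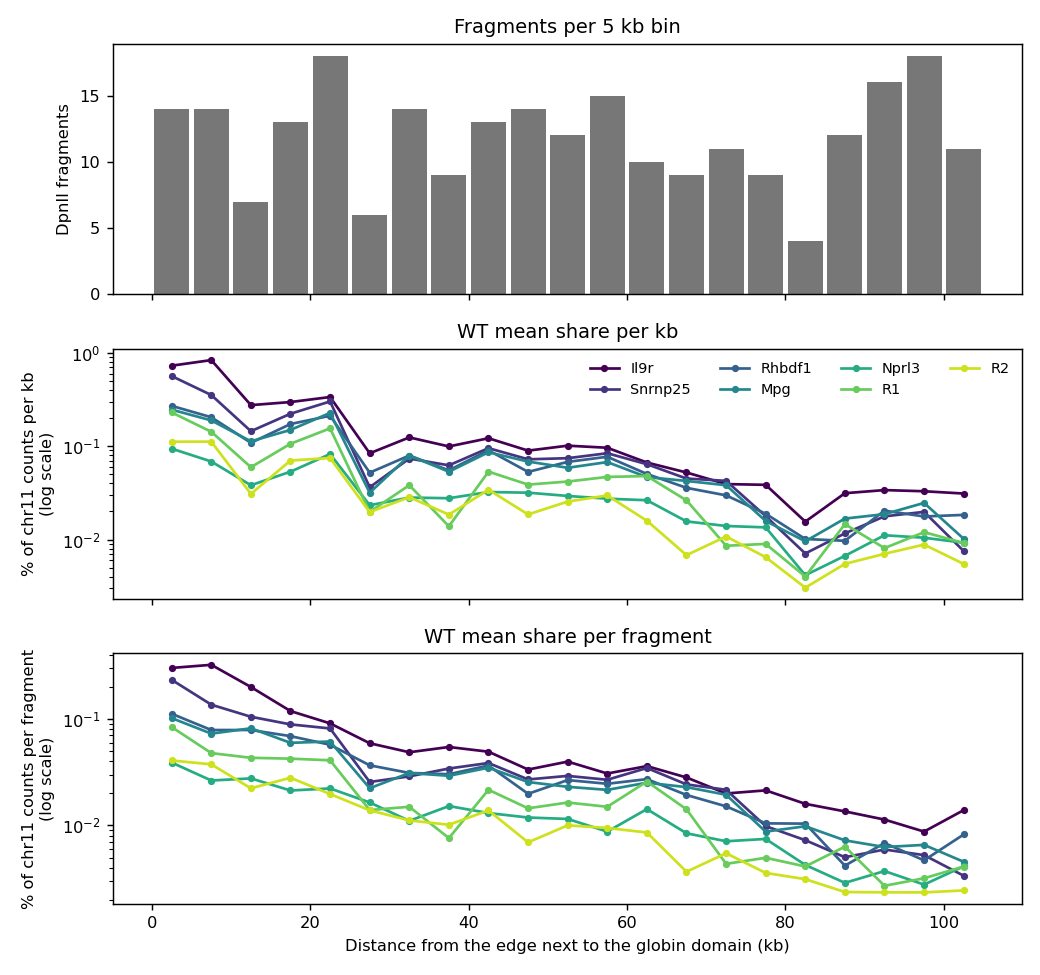
Number of DpnII fragments per 5 kb bin (top), and the WT mean share of chr11 counts per kb (middle) and per fragment (bottom, both on log scales), against distance from the edge (x axis, kb), with a line per viewpoint. The drop from the bin at 20 to 25 kb (18 fragments) to the next is shallower per fragment than per kb, and the drop to the bin at 80 to 85 kb (4 fragments) is shallower too or, for Mpg, not seen.

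The next comparison asks which bins differ between genotypes for several viewpoints at once. The bins nearest to the edge rose for Il9r and Snrnp25, and bins farther out fell for Mpg and Nprl3 when chr11 counts were the library size. For Rhbdf1 the share of bins called lower was close to that of the chromosome, and for Mpg it equalled that of the chromosome by DESeq2. edgeR's quasi-likelihood test, fitted for each viewpoint over all 5 kb bins of chr11 with at least 20 counts, called 7 flank bins higher and 13 lower in D3839 when summed over viewpoints (Benjamini-Hochberg adjusted p under 0.05). The bins at 0 to 5, 5 to 10 and 10 to 15 kb were called higher for Il9r and Snrnp25 alike. Those at 20 to 25, 30 to 35, 45 to 50 and 55 to 60 kb were called lower for at least 2 viewpoints. Viewpoints of the promoter capture share their libraries, so calls for several of them are not independent. How many chr11 bins or fragments outside the flank were called for 2 or more viewpoints was not counted. The calls for several viewpoints are therefore not shown to be particular to the flank. The 13 lower calls depended on single libraries. Of these same calls 1 was made again without WT replicate 1, 5 without WT replicate 2, 8 without WT replicate 3, 3 without D3839 replicate 2 and 5 without D3839 replicate 3. All 13 were made again without D3839 replicate 1. The bins called lower for at least 2 viewpoints numbered 0 without WT replicate 1 or D3839 replicate 3, and 1 without WT replicate 2 or D3839 replicate 2. With D3839 replicates 2 and 3 summed to 1 library, as if of 1 clone, edgeR called 0 bins lower. With all interactions as the library size it also called 0 lower, and 17 higher, of which 13 were for Il9r and 4 for Snrnp25. Of the 3 bins called higher for 2 viewpoints, 1 was called without WT replicate 2, D3839 replicate 2 or D3839 replicate 3.

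For Il9r 4 of 21 flank bins were called higher, which is 19.0%, where 1.48% of the 675 chr11 bins tested were. The bin at 0 to 5 kb held 2.18%, 2.30% and 2.75% of chr11 counts in WT and 5.48%, 4.89% and 4.97% in D3839. That is a log2 ratio of 1.10 ± 0.11 (edgeR adjusted p = 4.55e-20). The captured stretch of Il9r spans the border between this bin and the next, and fragments of the stretch carry no counts. The bin at 5 to 10 kb held 2.65%, 2.98% and 4.02% in WT and 6.37%, 6.44% and 6.46% in D3839, more than any other flank bin in D3839 (log2 1.01 ± 0.11, edgeR adjusted p = 2.24e-18). The bins at 10 to 15 and 15 to 20 kb rose by 1.03 ± 0.12 and 0.69 ± 0.12. At 20 to 25 kb the ratio was 0.35 ± 0.12 (edgeR adjusted p = 0.0823), and beyond 30 kb the ratios ran from −0.52 to 0.34 with none called.

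For Snrnp25 3 of 21 bins were called higher, or 14.3%, where 2.2% of the 273 chr11 bins tested were. In the bin at 0 to 5 kb, WT libraries held 1.82%, 1.68% and 2.08% and D3839 libraries 3.18%, 3.22% and 3.51% (log2 0.83 ± 0.14, edgeR adjusted p = 1.56e-06). The bins at 5 to 10 and 10 to 15 kb had log2 ratios of 0.49 ± 0.15 and 0.66 ± 0.17 (edgeR adjusted p = 0.0384 and 0.00967). All 3 bins were separate between genotypes, and DESeq2 called 1 of them, that at 0 to 5 kb, and 1.47% of 273 chr11 bins higher. The bin at 25 to 30 kb had a ratio of 0.80 ± 0.28 with 5 to 17 counts per WT library (edgeR adjusted p = 0.0823).

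Rhbdf1 had 2 of 21 bins called lower (9.52%), where 9.18% of the 305 chr11 bins tested were, a share close to that of the chromosome. DESeq2 called neither of these bins, and 1.43% of 210 chr11 bins lower. By edgeR the count was 0 without WT replicate 3 or D3839 replicate 2, 1 without WT replicate 1, WT replicate 2 or D3839 replicate 3, and 5 without D3839 replicate 1. At 30 to 35 kb the Rhbdf1 libraries held 0.357%, 0.491% and 0.459% in WT and 0.231%, 0.266% and 0.248% in D3839 (log2 −0.77 ± 0.25, edgeR adjusted p = 0.029). At 55 to 60 kb the ratio was −0.85 ± 0.27 (edgeR adjusted p = 0.0267). In the bins nearest to the edge, where Il9r and Snrnp25 rose, Rhbdf1 had ratios of −0.06 ± 0.18, −0.03 ± 0.18 and 0.05 ± 0.21.

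Mpg had 5 of 21 bins called lower (23.8%), where 10.9% of the 357 chr11 bins tested were. DESeq2 called 2 of them, those at 20 to 25 and 40 to 45 kb. It gave an adjusted p to 20 flank bins of Mpg, so its share in the flank equals the 10% of 170 chr11 bins it called lower. By edgeR, 0 bins of Mpg were called lower without WT replicate 1 or D3839 replicate 3, 2 without WT replicate 3 or D3839 replicate 2, and 3 without WT replicate 2. The highest count with a single library left out was 7. At 20 to 25 kb the Mpg libraries held 1.03%, 1.14% and 0.958% in WT and 0.755%, 0.641% and 0.563% in D3839 (log2 −0.68 ± 0.15, edgeR adjusted p = 0.0121). The ratios of the other called bins were −0.66 at 30 to 35 kb, −0.78 at 40 to 45 kb, −0.79 at 45 to 50 kb and −0.67 at 55 to 60 kb. The direction of Mpg depended on the scaling, since under TMM normalisation the bins at 20 to 25, 30 to 35 and 55 to 60 kb had ratios of 0.05, 0.08 and 0.07, and 1 flank bin was called higher.

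Nprl3 had 6 of 20 tested bins called lower (30%), where 5.14% of the 370 chr11 bins tested were. DESeq2 called 5 of these 6, all but the one at 35 to 40 kb, where it called 8.27% of 133 chr11 bins lower. The count for Nprl3 was 0 without WT replicate 1, 1 without WT replicate 2 or D3839 replicate 2, 4 without D3839 replicate 3 and 3 with a replicate block. The highest count with a single library left out was 9. At 20 to 25 kb the Nprl3 libraries held 0.473%, 0.344% and 0.318% in WT and 0.209%, 0.208% and 0.184% in D3839 (log2 −0.96 ± 0.21, edgeR adjusted p = 0.000945). The bin at 60 to 65 kb had the deepest ratio, −1.60 ± 0.36 (edgeR adjusted p = 0.00118), although a WT library with 0.0616% fell below the highest D3839 library with 0.0628%. The other 4 called bins lay at 35 to 40 and 45 to 60 kb, with ratios of −1.11 to −1.28. All 20 tested bins were below 0, and the bin at 80 to 85 kb did not reach 20 counts.

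For R1 and R2, edgeR called 0 flank bins, and 0 and 1 of the 651 and 937 chr11 bins tested were called lower (0% and 0.107%). At an unadjusted p under 0.05, 12 of 21 flank bins of R1 and 7 of 21 of R2 were lower and none was higher, where 14.3% of the chr11 bins tested were lower for R1 and 11.3% for R2, and 2.3% and 2.24% were higher. DESeq2 called 7 flank bins of R1 and 0 of R2 lower, where it called 7.51% of 373 chr11 bins lower for R1 and 3.48% of 374 for R2. The 0 for R1 depended on the libraries and the model, since edgeR called 6 bins lower without WT replicate 1, 2 without WT replicate 3, 6 with a replicate block and 5 among bins with at least 60 counts. All D3839 libraries lay below all WT libraries in 12 of 21 bins for R1, where 15.4% of chr11 bins did so, and in 6 of 21 for R2, where 13.7% did. In 1 bin of R1, at 35 to 40 kb, all D3839 libraries lay above all WT libraries (log2 0.56 ± 0.34, not called), a case whose chr11 share was not computed. At 60 to 65 kb R1 held 0.327%, 0.228% and 0.219% in WT and 0.0870%, 0.0802% and 0.0881% in D3839 (log2 −1.59 ± 0.29, edgeR adjusted p = 0.0682). At 55 to 60 kb, the bin called lower for 3 promoter viewpoints, R1 had a ratio of −1.18 ± 0.28 and R2 of −0.75 ± 0.34, neither past the threshold. WT libraries of R2 differed among themselves at 5 to 10 kb, with 0.827% in replicate 1 and 0.393% and 0.354% in the other replicates.

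**Figure D4:**
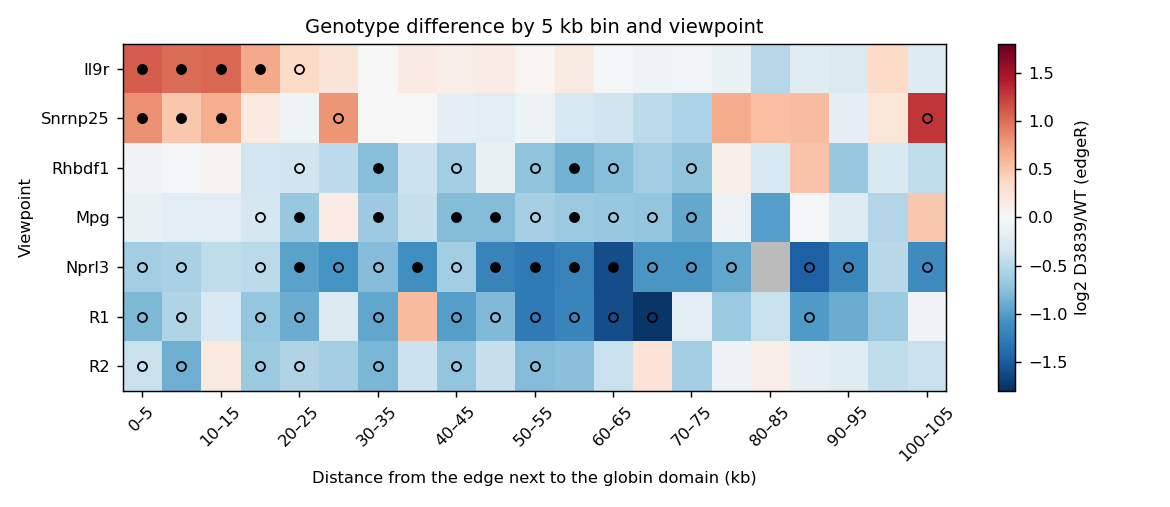
Log2 ratio of D3839 over WT (colour, edgeR fit) for each viewpoint (y axis) and 5 kb bin by distance from the edge (x axis, kb). Filled circles mark bins with a Benjamini-Hochberg adjusted p under 0.05, open circles an unadjusted p under 0.05, and grey the bin of Nprl3 that was not tested. Il9r and Snrnp25 are red in the first 3 bins, where the other viewpoints have ratios of −0.87 to 0.17.

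These ratios are read against the median of all chr11 bins tested, here called the chromosome median. It covers only bins with at least 20 counts, from 273 for Snrnp25 to 937 for R2. With chr11 counts as the library size, the median log2 ratio over all chr11 bins tested was −0.31 for Il9r, −0.23 for Snrnp25, −0.51 for Rhbdf1, −0.61 for Mpg, −0.59 for Nprl3, −0.32 for R1 and −0.30 for R2. The median over the flank bins was 0.12 for Il9r and 0.01 for Snrnp25, above the chromosome in both. It was −0.39 for Rhbdf1 and −0.53 for Mpg, which are slightly above their own chromosome medians. For Nprl3 and R1 the flank medians of −1.05 and −0.80 were below the chromosome, and for R2 the median was −0.41. After TMM the chromosome medians moved to −0.08 to 0.13 and the flank medians were 0.45, 0.20, 0.07, 0.21, −0.42, −0.50 and −0.22 for Il9r, Snrnp25, Rhbdf1, Mpg, Nprl3, R1 and R2. The gap between both medians is nearly fixed under a change of library size and is no check of the scaling. It depends on the unit, as over fragments with at least 20 counts the flank median was below the chromosome for Rhbdf1 (−0.32 against 0.10) and Mpg (−0.41 against −0.12), the reverse of the bins. Under TMM or with all interactions as the library size, edgeR called 0 flank bins lower, against 13 with chr11 counts.

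**Figure D5:**
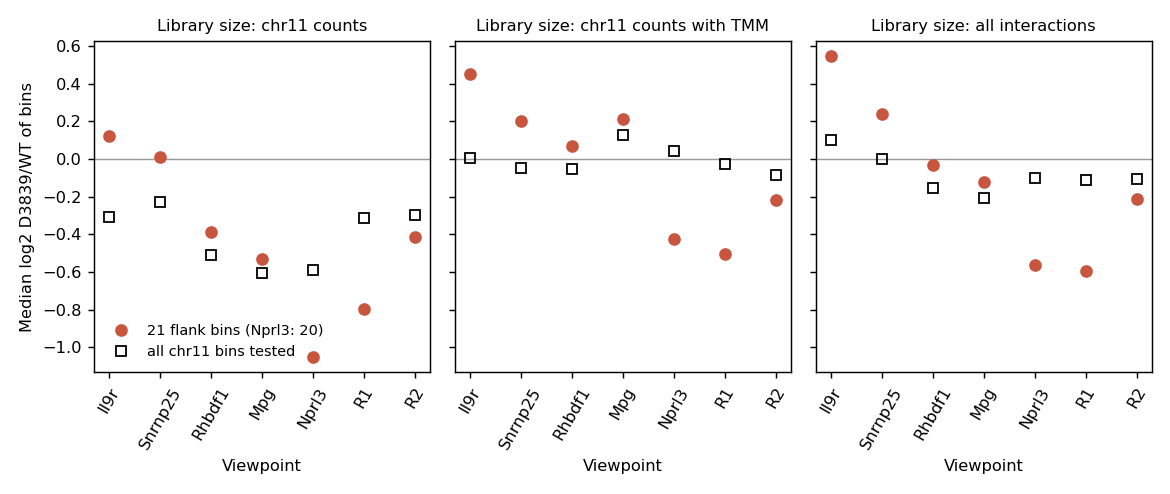
Median log2 ratio of D3839 over WT (y axis) over the flank bins (filled circles) and over all chr11 bins tested (open squares) for each viewpoint (x axis), with 3 choices of library size. In each panel the flank lies above the chromosome for Il9r, Snrnp25, Rhbdf1 and Mpg and below it for Nprl3, R1 and R2, and the 3 choices move both symbols of a viewpoint nearly alike.

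At the resolution of single DpnII fragments the tests reached part of the flank. Of the 249 fragments, 217 had at least 20 counts for some viewpoint, 49 for all 7 viewpoints, and 32 for none. From 206 of the 249 for Il9r down to 49 for Nprl3 passed this filter. Since D3839 libraries were deeper for promoter viewpoints, the filter favours fragments that are high in D3839 there. Over all viewpoints 37 calls were higher and 9 lower, on 37 different fragments. Without WT replicate 1 the higher calls numbered 22, all among the 37. Of the 9 lower calls 1 was made again without WT replicate 1, 4 without WT replicate 2 or WT replicate 3, 5 without D3839 replicate 2 and 2 without D3839 replicate 3. Without D3839 replicate 1, 8 of the 9 were made again.

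Il9r accounted for 29 of these, all higher and all within 20 kb of the edge, where 38 fragments were tested. They are 14.1% of the 206 tested, where 3.26% of 1228 chr11 fragments were called higher. With single libraries left out the count for Il9r was 19 to 30. The fragment with the smallest p, chr11:32096663-32098159, held 0.316%, 0.311% and 0.429% of chr11 counts in WT and 1.03%, 1.05% and 0.951% in D3839 (log2 1.55 ± 0.16, edgeR adjusted p = 1.23e-11). On the other side of the captured stretch, chr11:32101455-32101708 held 0.434%, 0.408% and 0.363% in WT and 1.07%, 0.966% and 1.07% in D3839 (log2 1.34 ± 0.15, edgeR adjusted p = 3.80e-10). The called fragments thus lie on both sides of the Il9r viewpoint, with log2 ratios of 0.59 to 1.55. The fragments chr11:32102746-32103254 and chr11:32095851-32096336 had ratios of 1.28 ± 0.17 and 1.39 ± 0.18. In WT the highest shares belonged to chr11:32098707-32098763 and chr11:32098459-32098706, just before the stretch, at 0.401% to 0.637% and 0.297% to 0.538%. These rose as well, by 0.72 ± 0.16 and 1.03 ± 0.17.

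Snrnp25 had 8 fragments called higher of 101 tested (7.92%), where 6.25% of 416 chr11 fragments were called higher, a share close to that of the chromosome. All 8 were also called for Il9r, and without WT replicate 1 or WT replicate 2 the fragments called for both numbered 3 and 4. The share of chr11 fragments called for both was not counted. Of the 8, 6 form an unbroken run from 32101455 to 32104553 between the captured stretches of Il9r and Snrnp25, and the other 2 are chr11:32096337-32096662 and chr11:32092063-32092507. The fragment chr11:32103255-32103813 held 0.372%, 0.180% and 0.270% of Snrnp25 counts in WT and 0.631%, 0.702% and 0.698% in D3839 (log2 1.23 ± 0.19, edgeR adjusted p = 1.37e-08). For Il9r the same fragment had a ratio of 1.19. At chr11:32102746-32103254, which is among the 2 highest WT shares of Snrnp25, Rhbdf1, Mpg and Nprl3, Snrnp25 rose by 1.01 ± 0.18, and Rhbdf1, Mpg and Nprl3 had ratios of −0.47 ± 0.28, −0.27 ± 0.29 and −1.10 ± 0.41, none past the threshold. The other of the 2 highest fragments of Snrnp25 and of Nprl3 was chr11:32102383-32102745, with ratios of 0.81 ± 0.19 and −0.65 ± 0.38. Fragment chr11:32101709-32102382, the other one of Rhbdf1 and Mpg, had ratios of −0.21 ± 0.27 and −0.32 ± 0.29 there and of 0.82 ± 0.20 for Snrnp25 (edgeR adjusted p = 0.00215).

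Of the 9 lower calls, 6 lay at 20 to 25 kb, the bin with the most fragments in the near part. Rhbdf1 had 1 call in 100 tested fragments (1.00%), where 1.55% of chr11 fragments were called lower. It was chr11:32082169-32082657, at 0.130%, 0.0614% and 0.159% in WT and 0.0525%, 0.0497% and 0.0441% in D3839 (log2 −1.27 ± 0.41, edgeR adjusted p = 0.0345). Mpg had 4 calls in 119 (3.36%, chromosome 1.36%) and Nprl3 had 4 in 49 (8.16%, chromosome 4.55%). The fragment chr11:32082718-32082940 was called for Mpg and Nprl3 alike. For Mpg it held 0.125%, 0.111% and 0.128% in WT and 0.0911%, 0.0529% and 0.0381% in D3839 (log2 −1.08 ± 0.37, edgeR adjusted p = 0.0449), and for Nprl3 the ratio was −1.47 ± 0.52 (edgeR adjusted p = 0.0439). For Il9r and Snrnp25 this fragment had ratios of 0.18 and −0.33, neither called. It was not called for both Mpg and Nprl3 when any single library was left out.

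The other lower calls rested on few counts. For Mpg they were chr11:32084889-32085040, chr11:32084744-32084873 and chr11:32045646-32045898, with ratios of −1.44 ± 0.46, −1.27 ± 0.45 and −2.12 ± 0.71 and 2 to 16 counts per library. For Nprl3 they were chr11:32052650-32053285, chr11:32083326-32083604 and chr11:32080749-32081280, with ratios of −2.38 ± 0.67, −1.87 ± 0.56 and −2.20 ± 0.67. The last of these had 11, 3 and 0 counts in WT and 2, 3 and 4 in D3839. DESeq2 called none of the 4 fragments of Mpg, and 0% of 394 chr11 fragments lower for Mpg. It gave an adjusted p to 82 flank fragments of Mpg, 5 of Rhbdf1 and 0 of Nprl3, and to none of those called for Rhbdf1 or Nprl3.

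No fragment was called for R1 or R2 by edgeR, where 0% of 841 and 0% of 977 chr11 fragments were called lower, and DESeq2 called 6 of R1 and 5 of R2 lower in the flank. By DESeq2, 7.27% of chr11 fragments were lower for R1 and 9.35% for R2. Among flank fragments to which DESeq2 gave an adjusted p, the share called lower was below these chr11 values for both viewpoints. The DESeq2 calls are therefore not more frequent in the flank than on the chromosome. Without WT replicate 1, edgeR called 10 fragments of R1 lower. At an unadjusted p under 0.05, 31 of 134 fragments tested for R1 were lower and none higher, where 16.8% of the chr11 fragments were lower and 5.35% higher. For R2 19 of 137 were lower and 3 higher, where 17.1% of the chr11 fragments were lower and 3.68% higher. The smallest p for R1 was at chr11:32071257-32071388, with 0.0287%, 0.0430% and 0.0193% in WT and 0.00300%, 0.00365% and 0.00187% in D3839 (log2 −3.29 ± 0.73, edgeR adjusted p = 0.0937). Among fragments with a positive ratio it was at chr11:32065837-32067255 (1.56 ± 0.79, edgeR adjusted p = 0.293). For R2 the smallest p was at chr11:32104554-32104678, the fragment at the edge that begins the Snrnp25 stretch (log2 −1.35 ± 0.39, edgeR adjusted p = 0.186). This fragment is also among the highest for R1 in WT, where it held 0.241%, 0.113% and 0.0699% against 0.0480%, 0.0529% and 0.0487% in D3839. The highest fragments of R2 were set by WT replicate 1, with 0.289% at chr11:32096663-32098159 against 0.0477% in each of the other WT replicates, and 0.190% at chr11:32088666-32088873 against 0.0293% and 0.0262%. The smallest p among positive ratios of R2 was at chr11:32055945-32056249 (2.17 ± 0.79, edgeR adjusted p = 0.198), on 1 count in each WT library and 4 to 9 in D3839.

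The flank was last set against the 162 fragments of the flank on the 3′ side of the domain. From R1 and R2, contacts on the 5′ side fell relative to those on the 3′ side. The log2 ratio of 5′ to 3′ counts fell by 0.64 for R1 and by 0.55 for R2 with separate libraries (SE 0.12 and 0.15), while the 3′ share itself overlapped between genotypes (4.34% ± 0.43 and 3.98% ± 0.15 for R1, 2.72% ± 0.35 and 2.77% ± 0.28 for R2). For Il9r and Snrnp25 the 5′ to 3′ ratio rose by 0.43 ± 0.15 and 0.37 ± 0.12 without overlap, and against the first 30 kb of the 3′ flank alone by 0.30 and 0.34 with overlapping libraries. Nprl3 fell in both flanks, with a ratio that changed by −0.19 ± 0.07. For Rhbdf1 and Mpg the ratio changed by 0.04 ± 0.17 and 0.15 ± 0.24 with overlapping libraries, and their 3′ shares fell by 0.36 and 0.54 on the log2 scale. With all interactions as the total the 3′ shares of Rhbdf1, Mpg and Nprl3 overlapped between genotypes, and the 3′ share of Il9r rose by 0.67 and that of Snrnp25 by 0.17 without overlap. The exact permutation p was 0.1 for the 5 viewpoints with separate libraries, 0.9 for Rhbdf1 and 0.5 for Mpg (n = 3 per genotype), and the Benjamini-Hochberg value of those 5 was 0.14. Without D3839 replicate 1 the ratio of Mpg was 0.39 and that of Rhbdf1 0.20, both with separate libraries.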

How the data were processed

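The authors deposited a table of counts per library, holding the unnormalized number of interactions of each DpnII fragment with each viewpoint, for fragments with at least 1 count. The submitters' processing notes name Trim Galore, Bowtie and mm9, and the paper refers to an earlier NG Capture-C procedure. Whether duplicates were removed is not given in the sources used here.

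The flank is defined by coordinates, but it and the lists were chosen with earlier results of these data known. Flank fragments are those with a midpoint within the limits 32000031 and 32104922 on chr11, and those of the 3′ flank within 32204782 and 32281294. The total was the chr11 counts of a viewpoint and library. Shares were compared by exact two-sided permutation tests over 3 against 3 libraries, with the log2 ratio of means and its SE from the spread between libraries. Fragments and 5 kb bins, counted from the edge, were tested in edgeR 4.0.16 (R 4.3.3; glmQLFit and glmQLFTest) over all chr11 features with at least 20 counts over 6 libraries, with chr11 counts as library size and p adjusted by Benjamini-Hochberg over all features of a viewpoint. No normalisation factors were used. DESeq2 1.42.0 was an alternative. The edgeR script was tested on simulated data. Regions named in the text are, per viewpoint, the 2 fragments and bins with the highest WT share, bins called the same way for 2 or more viewpoints, the called fragments (at most 4 per direction, by p, or the smallest p per direction where none was called) and the steepest fall between neighbouring bins. Replicate numbers come from the labels. The labels do not say what these numbers mark, so no block was used, and a fit with a replicate block was an alternative.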

Additional observations from a re-analysis of the deposited data

How the results depend on the processing

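Shares of 3 against 3 libraries cannot pass p under 0.05, so for them a call means that the libraries were separate. A cap of 10 counts per fragment, which lowers deeper libraries more by construction, moved the flank share of every viewpoint. It gave log2 ratios of −0.56 for Il9r, −0.061 for Snrnp25, −0.089 for Rhbdf1, −0.18 for Nprl3, −0.49 for R1 and −0.32 for R2, all with overlapping libraries, so that Il9r and Snrnp25 turned direction, while Mpg stayed separate at −0.19. With all interactions as total, Rhbdf1 was at 0.027, Mpg at −0.011 and Nprl3 at −0.34, all overlapping. For Rhbdf1 and Mpg this total moved the share more than the cap did. Snrnp25 was at 0.068 with interactions beyond 30 kb only and at −0.012 with the end of the flank moved by 15 kb. For the parts of the flank, all interactions as the total, chosen after seeing the data, turned the near part of Rhbdf1 to 0.13 and of Mpg to 0.078, the middle part of Snrnp25 to 0.036, the far part of Il9r to 0.36, of Rhbdf1 to 0.031 and of Mpg to 0.054, and the 3′ share of Snrnp25 to 0.17 and of R1 to 0.077.

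The near share, as a log2 ratio, was 0.16 and separate for Rhbdf1 with the nearest 25 kb. It overlapped for R1 with the nearest 25 kb (0.073) or 50 kb (0.083), and for R2 it was 0.0081 with the nearest 25 kb and 0.0021 with D3839 replicates 2 and 3 as 1 library. Without single libraries it was 0.075 to 0.15 for Rhbdf1, 0.031 to 0.12 for Mpg and −0.060 to 0.058 for R2. The ratio to the 3′ flank overlapped for Il9r (0.30) and Snrnp25 (0.34) against its first 30 kb, and without single libraries it was −0.062 to 0.20 for Rhbdf1 and 0.012 to 0.39 for Mpg.

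Counts of calls moved more. With all interactions as library size, 17 bins were higher and 0 lower (0 for 2 or more viewpoints), and 67 fragments were higher and 1 lower (0 for 2 or more). Under TMM 0 bins were lower and 0 for 2 or more viewpoints, and the Mpg bins 5, 7 and 12, counted from the edge, turned to 0.054, 0.083 and 0.069. Without a filter, 1 bin was higher for 2 or more viewpoints, 5 were lower and 2 lower for 2 or more, and 21 fragments were higher (2 for 2 or more) and 5 lower (0 for 2 or more). From 60 counts on, 26 bins were lower and 8 for 2 or more viewpoints, and 5 fragments were lower, 0 for 2 or more. DESeq2 left 1 bin higher for 2 or more viewpoints, and gave no adjusted p, and so no count, for flank fragments of Nprl3. With D3839 replicates 2 and 3 summed, 0 bins were lower (0 for 2 or more), and 5 fragments were lower (0 for 2 or more) and 5 higher for 2 or more. Bins of 10 kb gave 3 higher calls and 1 for 2 or more viewpoints, and bins shifted by 2.5 kb gave 4 and 1. Without single libraries, 5 to 6 bin calls were higher (1 to 2 bins for 2 or more viewpoints) and 3 to 18 lower (0 to 6), and 22 to 38 fragment calls were higher (3 to 8) and 4 to 12 lower (0 to 1).

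In the fit with the replicate block, 6 bins were called higher and 16 lower, and 25 fragments higher and 7 lower. Of the 13 lower bin calls 9 were made again, and by viewpoint the lower bins were 1 for Rhbdf1, 6 for Mpg, 3 for Nprl3 and 6 for R1, against 2, 5, 6 and 0 without the block. Of the 9 lower fragment calls 5 were made again. The fragments called for 2 or more viewpoints were then 4 higher and 0 lower, and the paired flank share of Il9r was 0.66 and that of Nprl3 −0.81. Deviations of same-numbered libraries correlated at −0.64 to 0.34. With so few libraries these values cannot tell whether same-numbered libraries share a batch.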
